A study of Mus musculus with 12 samples.

Results

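Respiratory complexes I, II and III were followed through 56 of 22180 measured genes in mouse liver. The members are the genes whose symbol begins with Nduf or Uqcr, together with Sdha, Sdhb, Sdhc, Sdhd, Cyc1 and Cycs, and whose probe set names no other gene. Of several probe sets for a gene, the one with the highest mean over the 12 arrays stood for it. They hold 6 nuclear core subunits of complex I, 26 accessory subunits, 8 assembly factors named Ndufaf, the 4 subunits of complex II, 8 subunits of complex III, cytochrome c, and Ndufa4 with its relative Ndufa4l2. Ndufa4 was long counted in complex I and is now placed in complex IV. The symbol also brought in the pseudogene Uqcrh-ps1, so 55 members code for a protein. Uqcr10, Ndufs6, Ndufb4 and Ndufb2 were not described, because their probe sets also name another gene.

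Total RNA of 12 liver samples was measured on Affymetrix expression arrays, 3 samples in each of 4 groups. All mice were male C57Bl/6N animals of 2 months with loxP-flanked p53 alleles (p53 fl/fl, the strain Trp53tm1Brn), and each received an adenovirus through a tail vein. The Adeno-Cre fasted group received virus coding for Cre recombinase, which deletes floxed alleles, and was fasted for 24 h. The Adeno-GFP fasted group received virus coding for green fluorescent protein at an equal titre, kept its floxed p53 alleles, and was fasted for 24 h. The Adeno-Cre fed group and the Adeno-GFP fed group received the same viruses and ate standard chow without restriction. The dietary period began 3 days after the injection, so the deletion was meant to be acute. All groups, controls included, carried floxed alleles and an adenovirus. The promoter of the viral Cre, and with it the liver cells it acts in, is not given in the sources used here. The p53 gene itself was not analysed here, so the deletion was not checked on these arrays.

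Complex I takes electrons from NADH and complex II takes them from succinate, and both pass them to ubiquinone in the inner mitochondrial membrane. Complex III passes electrons from reduced ubiquinone to cytochrome c, the small carrier that feeds complex IV. A fasting liver burns fatty acids in its mitochondria, which delivers NADH and reduced ubiquinone to this chain, and p53 is known as a regulator of several mitochondrial genes.

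The 12 arrays had median log2 levels between 6.26 and 6.33, and any pair of livers from the same group had a correlation of 0.991 to 0.994 across genes. Hepatocyte markers, 11 of 11 measured, averaged 11.21 to 11.65 on every array, so the defining markers of the tissue were present. Markers of proliferating cells, 5 of 6 measured, averaged 8.88 to 9.35 in Adeno-Cre fasted livers, against 6.47 to 7.53 in Adeno-GFP fasted livers. They averaged 9.38 to 9.47 in Adeno-Cre fed livers, against 7.72 to 8.44 in Adeno-GFP fed livers. In whole tissue, fewer cells of a type and less RNA per cell cannot be told apart. The 3 samples of a group are numbered, but no label says that each came from a mouse of its own. The p-values thus measure the spread between these samples, which may be technical. Where single livers are named here, such a sample is meant.

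Levels are log2 values made by RMA, which equalises the distributions of the arrays, so a change shared by all genes would not be seen. A level says nothing about the amount of one transcript against another, since probe sets bind with different strength. Mean levels of the members ran from 5.16 for Uqcrh-ps1 to 12.26 for Ndufa4. Uqcrh-ps1 and Ndufa4l2 (mean 5.68) lay under the array medians and are not shown to be above background. The other 54 members lay above the medians. Replicates of the members lay close together, with a median within-group standard deviation of 0.0802 log2 units over the 55 coding members, against 0.135 over all genes and 0.0908 over the 4288 genes of at least the members' lower quartile of level (8.37). Ndufa4 and Ndufs4 had the smallest spread (0.025 and 0.026). The widest span over the 12 arrays was 1.46 log2 units, for the pseudogene.

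The promoters of the 4 members that passed the test for fasting are shown here, because these genes moved with diet in both directions. Capitals mark letters of the motifs searched. Each window runs from 250 bases before the annotated start of transcription to 50 bases after it, in the RefSeq build GRCm38.p6.
Ndufaf5, chr2:140170396-140170695, plus strand: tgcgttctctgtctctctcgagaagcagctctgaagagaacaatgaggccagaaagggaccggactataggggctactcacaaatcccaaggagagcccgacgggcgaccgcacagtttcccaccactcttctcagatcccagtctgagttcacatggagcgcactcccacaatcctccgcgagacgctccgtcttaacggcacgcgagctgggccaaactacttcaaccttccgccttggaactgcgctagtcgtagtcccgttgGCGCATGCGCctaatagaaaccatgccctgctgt
Ndufv1, chr19:4012706-4013005, minus strand: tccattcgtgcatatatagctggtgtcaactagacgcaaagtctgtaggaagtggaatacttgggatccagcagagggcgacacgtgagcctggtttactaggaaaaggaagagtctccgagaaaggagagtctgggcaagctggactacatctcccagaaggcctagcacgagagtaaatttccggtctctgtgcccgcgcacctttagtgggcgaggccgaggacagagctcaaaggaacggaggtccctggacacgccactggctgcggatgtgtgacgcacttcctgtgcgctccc
Ndufs7, chr10:80249199-80249498, plus strand: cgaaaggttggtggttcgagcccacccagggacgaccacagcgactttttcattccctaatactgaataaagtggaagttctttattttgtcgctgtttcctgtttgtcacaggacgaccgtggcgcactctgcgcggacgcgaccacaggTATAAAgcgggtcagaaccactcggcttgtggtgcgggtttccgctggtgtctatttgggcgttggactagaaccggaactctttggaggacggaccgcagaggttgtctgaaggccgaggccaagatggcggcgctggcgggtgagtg
Sdhd, chr9:50603800-50604099, minus strand: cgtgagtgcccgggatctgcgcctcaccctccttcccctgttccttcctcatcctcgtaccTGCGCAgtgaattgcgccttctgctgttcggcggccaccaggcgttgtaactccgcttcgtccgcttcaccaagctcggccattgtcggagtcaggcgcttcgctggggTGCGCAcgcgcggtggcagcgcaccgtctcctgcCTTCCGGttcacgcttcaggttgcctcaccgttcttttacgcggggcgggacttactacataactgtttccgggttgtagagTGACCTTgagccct

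Motifs were searched on both strands: CCGGAAG, the core bound by the factor GABP; TGCGCA, a core bound by NRF1; AAGGTCA, the element bound by ESRRA; CCAAT; and TATAAA. The longer NRF1 core GCGCATG, which shares letters with TGCGCA where they meet, was added after the sequences had been read. In the Sdhd window TGCGCA began 189 and 80 bases before the start, the reverse complement of CCGGAAG began 46 bases before it and that of AAGGTCA at base 37 after it. In the Ndufaf5 window GCGCATG began at base 17 after the start, with a match on the other strand overlapping it from base 20. The Ndufs7 window held TATAAA from 99 bases before the start, and the Ndufv1 window held none of these letters.

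Windows were found for 45 of the 56 members. TGCGCA stood in 12 of these 45 genes (26.7%), against 11.0% of 17491 coding genes with such windows. CCGGAAG stood in 22.2% of the members and 12.9% of coding genes, and GCGCATG in 24.4% of the members and 5.39% of coding genes. Since GCGCATG was added after sequences of members had been read, its share among them is not an independent comparison. AAGGTCA was found in 4.44% of the members and 4.73% of coding genes, CCAAT in 33.3% and 42.3%, and TATAAA in 8.89% and 14.8%. The windows of the members had a median GC content of 59.3%, against 56.3% for coding genes. These shares are descriptions of letters, not of bound factors, and were given no test.

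Many members also share a promoter region with a neighbour. Of the 45 members, 15 (33.3%) had a coding gene starting within 1000 bases on the opposite strand and facing away, against 8.48% of the coding genes. Ndufaf5 starts 88 bases from Esf1 and Sdhd 52 bases from Timm8b, which codes for a protein import factor. Neither neighbour passed the test for fasting. Esf1 differed by -0.05 log2 units with fasting (SE 0.06, limma adjusted p 0.713) and Timm8b by -0.02 (SE 0.06, limma adjusted p 0.868). With Adeno-Cre over both diets Esf1 rose by 0.24 (SE 0.06, limma adjusted p 0.0338). Ndufb3, which passed in that comparison with a change of 0.28, starts 64 bases from Fam126b at the nearest annotated start. Fam126b changed by 0.24 there and did not pass (SE 0.08, limma adjusted p 0.109). Whether a neighbour and its member differed in their response was not tested.

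Fasting was compared with feeding over both injections, which asks what a 24 h fast does to these transcripts. Of the 56 members, 3 rose and 1 fell, with limma's adjusted p below 0.05 over all 22180 genes. Over all genes 8.34% passed in this comparison (4.02% higher, 4.32% lower), against 7.14% of the members. Most members are bright, and among the 4288 brighter genes defined above 19.9% passed. Whether the members' share differs from that of genes of like level was not tested. Without adjustment 13 members (23.2%) had p under 0.05, against 21.9% of all genes and 38.5% of the brighter genes. The changes of all members had a median of 0.04 log2 units, against 0.01 over all genes, and 39 of 56 were positive, against 51.8% of all genes. The 95% interval stayed within 0.5 log2 units of 0 (1.41-fold) for 52 of 56 members, against 91.1% of all genes.

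The largest change belonged to the assembly factor Ndufaf5, an enzyme known in human cells to hydroxylate an arginine of the core subunit Ndufs7. Ndufaf5 measured 6.60, 6.88 and 6.58 in Adeno-Cre fasted livers, against 7.17, 7.18 and 7.11 in Adeno-Cre fed livers. It measured 6.43, 6.66 and 6.58 in Adeno-GFP fasted livers, against 6.96, 7.02 and 7.24 in Adeno-GFP fed livers. All 6 fasted livers lay under all 6 fed livers. The gene fell by 0.49 log2 units over both injections (SE 0.07, limma adjusted p 0.00153), to 1.41-fold lower. Taken apart, it fell by 0.47 after Adeno-Cre (SE 0.10, limma adjusted p 0.0318) and by 0.51 after Adeno-GFP (SE 0.10, limma adjusted p 0.0191).

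**Figure D1:**
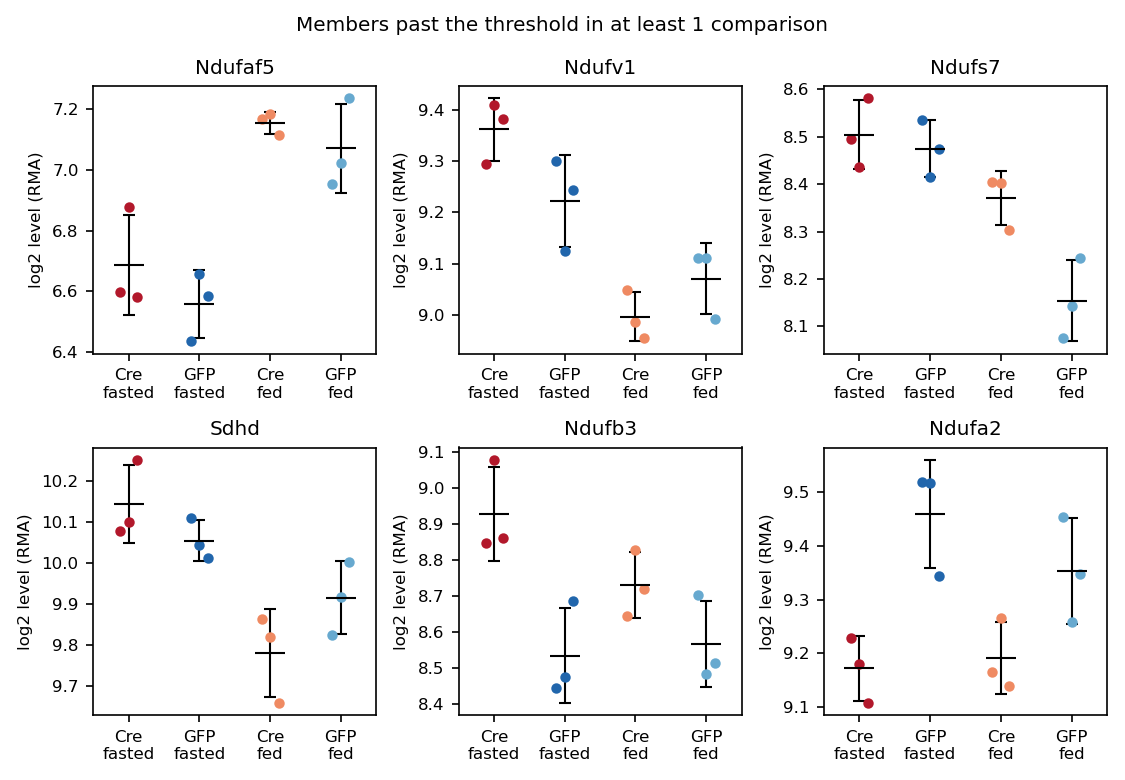
Log2 level (RMA, vertical axes, scaled for each gene) of the 6 members that passed the test in at least 1 comparison. Points are single liver samples, 3 in each group, and bars are the group mean with its standard deviation. Ndufaf5 lies lower in all 6 fasted samples, and Ndufv1, Ndufs7 and Sdhd lie higher in all 6.

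Complex I core subunits carry the flavin and the iron-sulfur clusters through which electrons run. Ndufv1, which holds the flavin and the NADH site, measured 9.29, 9.41 and 9.38 in Adeno-Cre fasted livers, against 9.05, 8.99 and 8.96 in Adeno-Cre fed livers. In Adeno-GFP livers it measured 9.30, 9.13 and 9.24 when fasted, against 9.11, 9.11 and 8.99 when fed. The fasted and fed livers did not overlap after either injection. Ndufv1 rose by 0.26 over both injections (SE 0.05, limma adjusted p 0.0108), which is 1.20-fold. It rose by 0.36 after Adeno-Cre (SE 0.08, limma adjusted p 0.0256), and the change of 0.15 after Adeno-GFP did not pass (SE 0.08, limma adjusted p 0.344). The test of the difference between those changes gave 0.21 (95% interval -0.02 to 0.44, limma adjusted p 0.701), so a larger response after Adeno-Cre was not shown.

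Ndufs7, which holds the iron-sulfur cluster next to the ubiquinone site, measured 8.50, 8.44 and 8.58 in Adeno-Cre fasted livers, against 8.40, 8.40 and 8.30 in Adeno-Cre fed livers. In Adeno-GFP livers it measured 8.53, 8.42 and 8.48 when fasted, against 8.07, 8.14 and 8.25 when fed. Again fasted and fed livers did not overlap after either injection, and the Adeno-GFP fed livers were the lowest. Ndufs7 rose by 0.23 over both injections (SE 0.05, limma adjusted p 0.0223). It rose by 0.32 after Adeno-GFP (SE 0.08, limma adjusted p 0.0421), and the change of 0.13 after Adeno-Cre did not pass (SE 0.08, limma adjusted p 0.426). The difference between the injections was -0.19 (95% interval -0.42 to 0.05, limma adjusted p 0.734).

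The other 4 core subunits did not pass. Ndufs1, the largest core subunit, measured 10.66, 10.62 and 10.45 in Adeno-Cre fasted livers and 10.46, 10.48 and 10.55 in Adeno-GFP fasted livers. It measured 10.34, 10.41 and 10.30 in Adeno-Cre fed livers and 10.41, 10.39 and 10.44 in Adeno-GFP fed livers. Every fasted liver lay above every fed liver, by 0.16 on average (SE 0.05, limma adjusted p 0.095). Ndufs3 and Ndufv2 had changes of 0.14 and 0.10 over both injections, and Ndufs8 one of -0.11. With 5 of 6 changes positive, the core subunits had a median of 0.15, against 0.01 for all genes.

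Among the 26 accessory subunits, which surround the core and stabilise it, none passed for fasting over both injections. Their median change was 0.04, and the changes ran from -0.21 to 0.18. Ndufab1, the mitochondrial acyl carrier protein, measured 8.12, 8.09 and 7.77 in Adeno-Cre fasted livers, against 7.93, 7.94 and 7.96 in Adeno-Cre fed livers. Its change over both injections was 0.02 (SE 0.07, limma adjusted p 0.915). It was 7.90, 8.05 and 8.01 in Adeno-GFP fasted livers, against 7.93, 7.96 and 8.11 in Adeno-GFP fed livers, so all 4 groups overlapped. Ndufs4, whose loss causes a form of Leigh syndrome, had the narrowest span of all members over the 12 arrays, 0.124 log2 units. Among coding members Ndufb11 had the widest span, 1.01 log2 units, and the third liver of both fasted groups was low for it, at 6.92 after Adeno-Cre and 6.65 after Adeno-GFP.

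The 8 assembly factors, which build complex I and are not part of it, had a median change of -0.06 with fasting, and Ndufaf5 was the only one of them called. Ndufaf6 measured 7.87, 7.73 and 7.22 in Adeno-Cre fasted livers, against 8.01, 7.97 and 7.64 in Adeno-Cre fed livers. It measured 7.41, 7.56 and 7.56 in Adeno-GFP fasted livers, against 8.03, 7.96 and 7.93 in Adeno-GFP fed livers. The Adeno-GFP groups did not overlap, the Adeno-Cre groups did, and the change of -0.37 over both injections did not pass (SE 0.11, limma adjusted p 0.0521). Ndufaf3 and Ndufaf7 had changes of 0.16 each. Ndufaf1, part of an early assembly complex, had a difference of 0.00 (95% interval -0.12 to 0.13).

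In complex II, Sdhd alone was called. Sdhd, a membrane anchor of succinate dehydrogenase, measured 10.08, 10.10 and 10.25 in Adeno-Cre fasted livers, against 9.86, 9.82 and 9.66 in Adeno-Cre fed livers. It measured 10.11, 10.04 and 10.01 in Adeno-GFP fasted livers, against 9.83, 9.92 and 10.00 in Adeno-GFP fed livers. The Adeno-GFP groups touched without overlapping, and the Adeno-Cre groups lay apart. Sdhd rose by 0.25 over both injections (SE 0.06, limma adjusted p 0.0223) and by 0.36 after Adeno-Cre (SE 0.08, limma adjusted p 0.0401), and the change of 0.14 after Adeno-GFP did not pass (SE 0.08, limma adjusted p 0.452). The difference between the injections was 0.22 (95% interval -0.03 to 0.48, limma adjusted p 0.719).

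The other subunits of complex II stayed close to 0 with fasting. Over both injections the difference was -0.05 for Sdha, the flavoprotein that binds succinate, 0.03 for Sdhb, the iron-sulfur subunit, and -0.03 for Sdhc, the other anchor. Their 95% intervals lay within 0.5 log2 units of 0.

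No subunit of complex III passed for fasting, over both injections or after either, and the median of the 8 was 0.03. Uqcr11, a small subunit, had the lowest change, -0.15 (SE 0.06, limma adjusted p 0.172). The difference was -0.03 for Cyc1, the cytochrome c1 of the complex, 0.07 for Uqcrfs1, the Rieske iron-sulfur protein, and 0.02 for the core protein Uqcrc2. Uqcrc1, the other core protein, measured 8.81, 8.91 and 8.85 in Adeno-Cre fasted livers, against 8.70, 8.73 and 8.51 in Adeno-Cre fed livers, without overlap. Its change of 0.21 after Adeno-Cre did not pass (SE 0.08, limma adjusted p 0.213). In Adeno-GFP livers it measured 8.90, 8.88 and 8.88 when fasted, against 8.94, 8.78 and 8.91 when fed. Cycs, cytochrome c itself, differed by 0.07 over both injections on the probe set kept (SE 0.06, limma adjusted p 0.534). With fasting after Adeno-Cre its other probe sets gave changes of 0.14 to 0.44, against 0.15 for the one kept. After Adeno-GFP they gave 0.01 to 0.10, against -0.004. Ndufa4, among the brightest and steadiest of the probe sets, differed by -0.07 (95% interval -0.16 to 0.03), and Ndufa4l2 by 0.05 at levels under the array medians.

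The calls over both injections did not rest equally firmly on the arrays. Ndufaf5 and Ndufv1 passed without any 1 of the 12 arrays. Sdhd missed the threshold without the third Adeno-Cre fed (limma adjusted p 0.0548), the first Adeno-GFP fasted (0.0522) or the first Adeno-GFP fed array (0.0553). Ndufs7 missed it without the third Adeno-Cre fed (0.0569), the first Adeno-GFP fasted (0.0528), or the first or the second Adeno-GFP fed array (0.0555 and 0.0518). Cell type markers moved with fasting too. Over both injections 4 of 5 proliferation markers fell, and their median change was -0.83. Of 11 hepatocyte markers 3 rose. Of 9 Kupffer cell markers 1 fell, as did 1 of 9 T and NK markers. Of 9 stellate markers 4 fell. The stellate list averaged 7.74 to 7.97 in Adeno-Cre fasted livers, against 8.08 to 8.18 in Adeno-Cre fed livers. It averaged 8.02 to 8.12 in Adeno-GFP fasted livers, against 8.28 to 8.32 in Adeno-GFP fed livers. The part of these markers in the result was not tested.

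Within each injection fewer members passed. After Adeno-Cre, Ndufv1 and Sdhd rose and Ndufaf5 fell, which is 5.36% of the 56 members, beside 2.67% of all genes (1.5% higher, 1.17% lower) and 7.46% of the brighter genes. After Adeno-GFP, Ndufs7 rose and Ndufaf5 fell, which is 3.57% of the members, beside 3.07% of all genes (1.2% higher, 1.87% lower) and 7.86% of the brighter genes. Which of these backgrounds is used turns the order after Adeno-Cre, so nothing is read from the members' share. Unadjusted p was under 0.05 for 8 members after Adeno-Cre, against 16.0% of all genes, and for 5 after Adeno-GFP, against 16.7%. Changes were positive for 39 members after Adeno-Cre (69.6%, against 49.8% of all genes) and for 32 after Adeno-GFP (57.1%, against 53.3%). The median was 0.05 after Adeno-Cre, against -0.00 over all genes, and 0.01 after Adeno-GFP, against 0.01. Fasted and fed livers did not overlap for 10 higher and 5 lower members after Adeno-Cre, beside 11.3% and 9.81% of all genes. After Adeno-GFP they did not overlap for 8 higher and 6 lower members, beside 11.1% of all genes on each side. The 95% interval lay within 0.5 log2 units of 0 for 49 members after Adeno-Cre (79.3% of all genes) and for 51 after Adeno-GFP (78.6%). The core subunits had a median of 0.15 after Adeno-Cre and 0.11 after Adeno-GFP, the accessory subunits 0.06 and 0.01, and the assembly factors -0.07 and -0.11.

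Both comparisons rest on their own 6 livers for the means and on all 12 for the spread. When only the livers compared entered the fit, none of these 5 calls held, with limma adjusted p of 0.0535 to 0.128. Single arrays ended them too. After Adeno-Cre, Ndufv1 missed the threshold without the first or the second Adeno-Cre fasted or any Adeno-Cre fed array (limma adjusted p up to 0.0927), and Ndufaf5 without the first or the third Adeno-Cre fasted or any Adeno-Cre fed array (up to 0.126). Sdhd passed only without the first or the third Adeno-GFP fed array, and reached 0.146 otherwise. After Adeno-GFP, Ndufaf5 missed it without the first or the third Adeno-GFP fasted or the second or the third Adeno-GFP fed array (up to 0.0729). Ndufs7 passed only without the second or the third Adeno-Cre fasted or the third Adeno-GFP fed array, and reached 0.146 otherwise. With the replicate number as a block, Sdhd after Adeno-Cre (0.072) and Ndufs7 after Adeno-GFP (0.068) missed the threshold, and Sdhd after Adeno-Cre also missed it when the arrays were quantile-normalised again (0.0528).

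**Figure D2:**
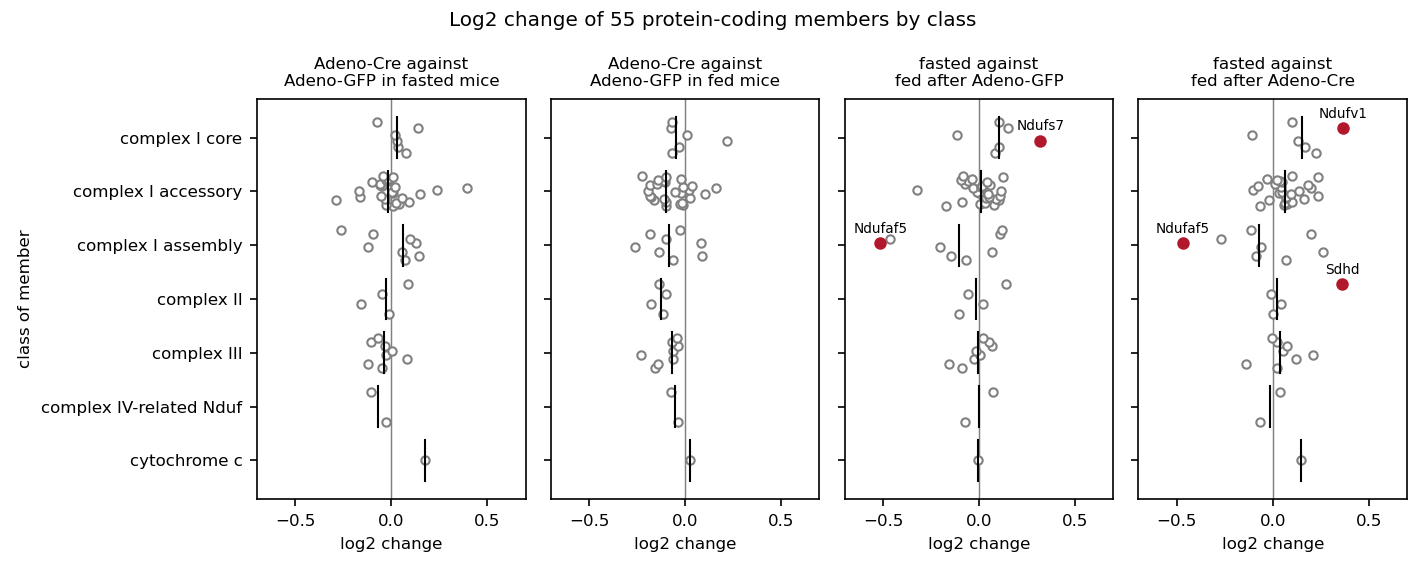
Log2 change (horizontal axis) of the 55 protein-coding members, grouped by class, in the 4 comparisons within 1 diet or 1 injection. Open points did not pass and filled red points passed limma's adjusted p of 0.05, and black lines are class medians; in the Adeno-Cre comparison of fed mice the 4 complex II and 8 complex III members plotted lie left of 0 with none called.

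Adeno-Cre was compared with Adeno-GFP to ask what deletion of p53 does to these transcripts. The groups also differ in the viral protein, and none received Cre without floxed p53 alleles. Effects of p53 loss and of Cre itself thus cannot be told apart. In fasted mice 0 of 56 members passed limma's adjusted p, beside 2.75% of all genes (2.26% higher, 0.482% lower) and 4.52% of the brighter genes. Unadjusted p was under 0.05 for 5 members (8.93%), against 16.7% of all genes. The median change was -0.02, against -0.03 over all genes, and 26 of 56 (46.4%) were positive, against 41.6% of all genes. Adeno-Cre and Adeno-GFP fasted livers did not overlap for 2 higher members, beside 9.96% of all genes, and for 7 lower ones, beside 10.9%. The 95% interval lay within 0.5 log2 units of 0 for 52 of 56, against 78.5% of all genes, and within 1 log2 unit (2-fold) for all 55 protein-coding members.

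Ndufb3, a small accessory subunit, came closest in fasted mice. It measured 8.85, 9.08 and 8.86 in Adeno-Cre fasted livers, against 8.44, 8.48 and 8.69 in Adeno-GFP fasted livers, without overlap. The change was 0.39 (SE 0.10, limma adjusted p 0.0577). Ndufa2, another accessory subunit, measured 9.23, 9.18 and 9.11 in Adeno-Cre fasted livers, against 9.52, 9.52 and 9.34 in Adeno-GFP fasted livers, and lay lower in all 3 (-0.29, SE 0.08, limma adjusted p 0.0935). Both genes passed when dim genes were left out and when limma's prior was trended and robust.

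Cycs measured 12.38, 12.37 and 12.11 in Adeno-Cre fasted livers, against 12.07, 12.13 and 12.14 in Adeno-GFP fasted livers. The third Adeno-Cre liver lay inside the range of the Adeno-GFP livers, and the change of 0.18 did not pass (SE 0.08, limma adjusted p 0.304). The gene has 5 probe sets, and the other 4 gave changes of 0.10 to 0.40, of which 2 hold identical values on all 12 arrays. Uqcrh-ps1 had a larger difference, -0.63 (SE 0.26, limma adjusted p 0.239), at levels under the array medians.

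In fed mice 0 of 56 members passed limma's adjusted p, beside 1.49% of all genes (1.08% higher, 0.415% lower) and 2.85% of the brighter genes. With a trended and robust prior in limma 1 passed, Ndufaf4. Unadjusted p was under 0.05 for 9 members (16.1%), against 12.4% of all genes and 21.1% of the brighter genes. The changes were small and mostly of 1 sign. Of 56 members 11 were positive (19.6%, against 44.4% of all genes) and 45 negative, and the median was -0.07, against -0.02 over all genes. Adeno-Cre and Adeno-GFP fed livers did not overlap for 18 members that were lower (32.1%, against 11.5% of all genes) and 1 that was higher (1.79%, against 8.4%). Among the 4288 brighter genes, 21.6% were lower without overlap and the median was -0.02. Members share arrays and are not independent, so these shares carry no test. Markers of other liver cells were not all on the same side in these livers. T and NK markers averaged 6.2 to 6.475 in Adeno-Cre fed livers, against 6.07 to 6.137 in Adeno-GFP fed livers, and so lay higher. Of these 9 markers, 6 lay under the array medians on average. Averages of Kupffer cell, cholangiocyte, neutrophil and B cell markers overlapped. Those of sinusoidal endothelial and stellate cells were lower after Adeno-Cre. The 10 sinusoidal endothelial markers averaged 8.38 to 8.88 in Adeno-Cre fed livers, against 8.95 to 9.04 in Adeno-GFP fed livers, and the 9 stellate markers 8.08 to 8.18, against 8.28 to 8.32. Hepatocyte markers averaged 11.21 to 11.44 in Adeno-Cre fed livers, against 11.41 to 11.52 in Adeno-GFP fed livers, and proliferation markers were higher, as given above. Their part in the result was not tested.

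All 4 complex II members and all 8 complex III members were on the lower side in Adeno-Cre fed livers. The probe set that names Uqcr10 together with Gm6293, which is no member, was on the other side, with a difference of 0.03. The 4 complex II members had a median of -0.13 and ran from -0.18 for Sdhb to -0.10 for Sdhc. Sdha measured 11.92, 11.92 and 11.85 in Adeno-Cre fed livers, against 12.01, 11.99 and 12.05 in Adeno-GFP fed livers, without overlap (-0.12, SE 0.07, limma adjusted p 0.527). The 8 complex III members had a median of -0.07 and ran from -0.23 for Uqcrc1 (SE 0.08, limma adjusted p 0.223) to -0.04. In fasted mice the same 4 and 8 genes had medians of -0.03 and -0.04. The mean over complex II members, set against each gene's mean over 12 arrays, was -0.0343, -0.0691 and -0.169 in Adeno-Cre fed livers, against 0.0271, 0.0011 and 0.0946 in Adeno-GFP fed livers. For complex III it was -0.0476, -0.0504 and -0.0753 in Adeno-Cre fed livers, against 0.0923, -0.0193 and 0.0563 in Adeno-GFP fed livers. For both complexes the 3 Adeno-Cre fed livers lay below the 3 Adeno-GFP fed livers. The third Adeno-Cre fed liver was the lowest of its group for both.

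**Figure D3:**
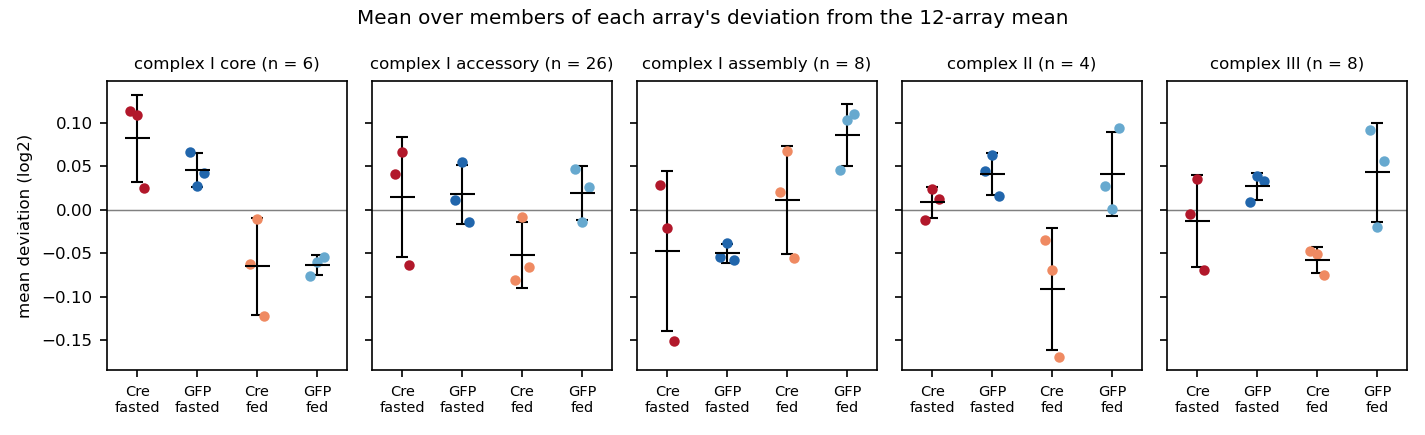
Mean over the members of a class of each liver's log2 deviation from the gene's mean over 12 arrays (vertical axis), for the core, accessory and assembly classes of complex I and for complexes II and III. Points are single liver samples, bars the group mean and standard deviation of 3. Complex I core lies above 0 in all 6 fasted samples and below 0 in all 6 fed samples.

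In complex I most but not all members were lower in Adeno-Cre fed livers. Its 26 accessory subunits had a median of -0.10 with 21 lower, its 8 assembly factors -0.08 with 6 lower, and its 6 core subunits -0.05 with 4 lower. Ndufaf4, an assembly factor, measured 11.05, 10.97 and 11.00 in Adeno-Cre fed livers, against 11.17, 11.30 and 11.34 in Adeno-GFP fed livers. Its Adeno-Cre livers lay below without overlap (-0.26, SE 0.08, limma adjusted p 0.173). Ndufs7 was the 1 member higher without overlap, with 8.40, 8.40 and 8.30 in Adeno-Cre fed livers, against 8.07, 8.14 and 8.25 in Adeno-GFP fed livers (0.22, SE 0.08, limma adjusted p 0.232). The 95% interval stayed within 0.5 log2 units of 0 (1.41-fold) for 55 of 56 members, all but Uqcrh-ps1, against 82.0% of all genes.

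Averaged over diets, Adeno-Cre against Adeno-GFP gave 1 member that rose and 1 that fell, 3.57% of the members, beside 5.59% of all genes (3.55% higher, 2.03% lower) and 12.4% of the brighter genes. Ndufb3 rose by 0.28 (SE 0.07, limma adjusted p 0.0381), and in fed mice it measured 8.64, 8.83 and 8.72 in Adeno-Cre livers, against 8.70, 8.48 and 8.52 in Adeno-GFP livers. These fed groups overlapped, with 1 Adeno-GFP liver above the lowest Adeno-Cre liver. Ndufa2 fell by 0.23 (SE 0.06, limma adjusted p 0.0411), and its fed livers measured 9.17, 9.27 and 9.14 after Adeno-Cre, against 9.45, 9.26 and 9.35 after Adeno-GFP, which overlapped by 1 array. Next came Ndufb10 (-0.18, limma adjusted p 0.0687) and Ndufaf4 (-0.19, limma adjusted p 0.0827), which did not pass. Unadjusted p was under 0.05 for 10 members, against 19.5% of all genes. The median of the 56 was -0.04, against -0.03 over all genes, and 17 were positive (30.4%, against 40.1%). The 95% interval lay within 0.5 log2 units of 0 for 55 members, against 92.6% of all genes.

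Both calls depended on single arrays. Ndufb3 held without 5 of the 12 arrays and missed the threshold without the second Adeno-Cre fasted, the second or the third Adeno-Cre fed, the first or the second Adeno-GFP fasted, or the second or the third Adeno-GFP fed array, with limma adjusted p up to 0.0923, with the replicate number as a block (0.0629) and with renewed quantile normalisation (0.0631). Ndufa2 held only without the third Adeno-GFP fasted or the second Adeno-GFP fed array, and without each of the other 10 its adjusted p was 0.0514 to 0.101. Proliferation markers moved with the injection: 5 of 5 rose in fasted mice and 4 of 5 in fed mice. Hepatocyte markers averaged 11.456 to 11.495 in Adeno-Cre fasted livers, against 11.566 to 11.652 in Adeno-GFP fasted livers. Stellate markers averaged 7.74 to 7.97, against 8.02 to 8.12, and cholangiocyte markers 6.08 to 6.37, against 6.43 to 6.45. Averages of sinusoidal endothelial, Kupffer cell, T and NK, neutrophil and B cell markers overlapped in fasted mice. In those mice 1 Kupffer cell marker fell and 1 T and NK marker rose. The part of these markers in the members' changes was not tested.

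Whether the fast acted differently after Adeno-Cre was tested as an interaction, and 0 of 56 members passed, beside 0.00451% of all genes. Unadjusted p was under 0.05 for 1 member, the dim pseudogene Uqcrh-ps1 (p 0.0284 by limma), against 7.56% of all genes. The estimates were positive for 46 of 56 members (82.1%), with a median of 0.06, against 49.9% and -0.00 for all genes. Brighter genes leaned the same way, with 65.2% positive and a median of 0.05 among 4288. The members' median was 0.02 when the arrays were quantile-normalised again and 0.11 without the third Adeno-Cre fasted array. For that array the mean deviation of the 40 complex I members was -0.0678, against 0.0494 and 0.0557 in the other 2 livers of its group. The interval of the interaction lay within 0.5 log2 units of 0 for 50 of 56 members, against 57.1% of all genes.

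Mitochondrial DNA codes for the remaining core subunits of complex I and for cytochrome b of complex III. All 8 of these genes, ND1 to ND6 with ND4L, and CYTB, were measured, and by limma 0 passed in any of the 7 comparisons, with 0 at an unadjusted p under 0.05. In Adeno-Cre against Adeno-GFP fasted livers their changes ran from 0.03 to 0.15, and in fed livers from -0.06 to 0.01. ND1 measured 12.89, 12.84 and 12.47 in Adeno-Cre fasted livers, against 12.60, 12.79 and 12.65 in Adeno-GFP fasted livers. ND2 measured 12.59, 12.59 and 12.26 in Adeno-Cre fasted livers, against 12.25, 12.45 and 12.30 in Adeno-GFP fasted livers. The third Adeno-Cre fasted liver was the lowest of its group in all 8 genes.

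Several genes of pathways around the 3 complexes rose with fasting. The tricarboxylic acid cycle supplies NADH and succinate, though not every enzyme listed with it makes either. Of 16 genes listed with the cycle, 6 rose and 1 fell over both injections. Among all genes 4.02% were called higher and 4.32% lower, and 19.9% of the brighter genes were called. Idh2 rose by 0.46 (SE 0.06, limma adjusted p 0.00119), Ogdh by 0.36 (SE 0.05, limma adjusted p 0.000846) and Dlst by 0.37 (SE 0.05, limma adjusted p 0.00154), and Pdhb of pyruvate dehydrogenase fell by 0.30 (SE 0.05, limma adjusted p 0.00516). Of 17 genes for other ubiquinone-reducing enzymes and ubiquinone synthesis, 4 rose: Prodh, Etfb, Etfdh and Coq3. Etfb and Etfdh, which carry electrons from fatty acid oxidation to ubiquinone, rose by 0.33 and 0.29. The coactivator Ppargc1a, a known driver of mitochondrial genes in fasting liver, rose by 0.79 (SE 0.12, limma adjusted p 0.00189), and Tfb1m by 0.34. In complex IV 1 of 15 rose (Cox6b2) and in ATP synthase 1 of 17 (Atp5h). Whether these lists differed from the members was not tested.

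Few genes of these lists were called with Adeno-Cre. In fed mice 1 of the 17 ubiquinone genes fell, beside 0.415% of all genes, and no other list had a call by limma. In fasted mice 2 of 15 complex IV genes, 1 of 17 ATP synthase genes and 1 of 17 assembly factors outside the rule rose, beside 2.26% of all genes. Prodh, proline dehydrogenase, measured 8.01, 8.05 and 7.91 in Adeno-Cre fed livers, against 8.45, 8.46 and 8.68 in Adeno-GFP fed livers, and fell by 0.54 (SE 0.11, limma adjusted p 0.0284). The ATP synthase inhibitor Atpif1 measured 10.29, 10.40 and 10.51 in Adeno-Cre fasted livers, against 9.81, 9.51 and 10.06 in Adeno-GFP fasted livers, and rose by 0.60 (SE 0.12, limma adjusted p 0.0218). Cox6b2 and Cox7a1, tissue-restricted forms of complex IV subunits, rose by 0.96 and 0.45 in fasted mice, and so did the assembly factor Tmem186, by 0.46. Averaged over diets, Prodh, Coq8a, Pdha1 and Pank1 fell, and Atpif1, Cox6b2 and Cox7a1 rose. Among all genes 3.55% were called higher and 2.03% lower in that comparison, and 12.4% of the brighter genes were called. With only the livers compared in the fit, none of these 5 within-diet calls held. No gene of these lists passed the interaction test.

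**Figure D4:**
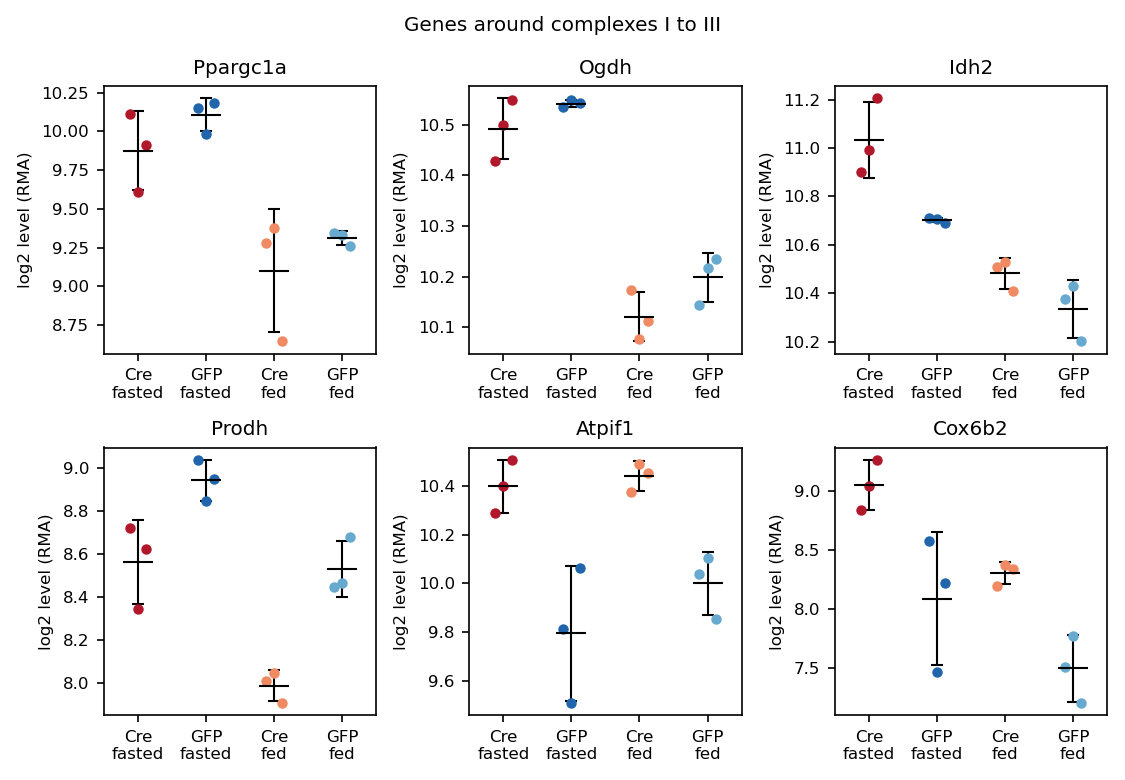
Log2 level (RMA, vertical axes, scaled for each gene) of 6 genes outside complexes I to III, chosen among those that passed. Points are single liver samples and bars the group mean and standard deviation of 3. Ppargc1a, Ogdh and Idh2 lie higher in fasted samples. Prodh lies lower and Atpif1 higher after Adeno-Cre within each diet.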

How the data were processed

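The deposited values were log2 levels per probe set made with RMA, per the submitters' processing notes. The sources used here do not name the software version, the probe annotation or the genome build. Of 41345 probe sets, 23521 named 1 gene in the platform annotation, 1814 several, and 16010 were not listed. The probe set with the highest mean was kept, leaving 22180 genes. Identifiers of 23328 probe sets matched the RefSeq gene table (GRCm38.p6).

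A limma model (version 3.58.1, R 4.3.3) held all 12 arrays and the 4 group means, followed by eBayes. Benjamini-Hochberg adjustment ran over all genes within each of 7 comparisons, with a threshold of 0.05. The fit was tested on simulated data. Named genes are all members past the threshold, the members with the 3 smallest p on each side, a fixed set of core genes, and genes of related lists past the threshold, up to 4 a list. The neighbouring promoters' genes, Ndufb11, ND1 and ND2 were named after their values were seen. Members and lists were chosen with earlier results of these data known. Same-numbered replicates did not deviate together across all genes (correlations -0.091 to 0.112), and the main fit held no pairing. Such correlations cannot exclude a pairing or a batch that touches few genes. Alternatives were a filter on dim genes, renewed quantile normalisation, a replicate block, the compared groups alone, a trended robust prior, the mean of a gene's probe sets, all probe sets, and leaving out each array.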

Additional observations from a re-analysis of the deposited data

How the results depend on the processing

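No call changed direction under any alternative run. Counts of members past the threshold moved as follows. For Adeno-Cre in fasted mice the count of 0 became 2 without dim genes and with a trended robust prior, and 1 after renewed quantile normalisation (Ndufa2, Ndufb3). In fed mice the count of 0 became 1 with the trended prior (Ndufaf4). For fasting after Adeno-GFP the count of 2 became 1 with the replicate block (Ndufs7 lost), 1 with the compared groups alone (Ndufaf6) and 0 with all probe sets tested. After Adeno-Cre the count of 3 became 0 with the compared groups alone and 0 with all probe sets tested. Averaged over diets, the Adeno-Cre count of 2 became 4 without dim genes and with the trended prior, 1 with the replicate block (Ndufb3 lost) and 0 with all probe sets. Renewed quantile normalisation also ended Ndufb3 over diets (limma adjusted p 0.0631) and Sdhd for fasting after Adeno-Cre (0.0528). Averaged over injections, the fasting count of 4 became 8 without dim genes. The interaction count stayed at 0 in each fit. Without single arrays these counts were 0 to 1 for Adeno-Cre in fasted mice, 0 in fed mice, 0 to 3 for fasting after Adeno-Cre, 0 to 3 after Adeno-GFP, 0 to 2 for Adeno-Cre over diets and 2 to 5 for fasting over injections. Of the comparisons of a single named gene with its value without an array, 2417 kept their side of the threshold, 194 lost it and 5 gained it; of those under the other alternatives 1344 kept it, 56 lost it and 21 gained it. RMA values carry no detection call, so the signal over background behind the dim members is not known.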
